A study of Mus musculus with 12 samples.

Results

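The 10 genes described here are the 2 brain receptors for glucocorticoids, Nr3c1 and Nr3c2, and 8 genes that glucocorticoids are known to induce: Rasd1, Fkbp5, Sgk1, Tsc22d3, Zbtb16, Cdkn1a, Hif3a and Pdk4. They were taken by symbol from the 32494 genes of the normalized table, and all 10 were found. The set was chosen by symbol with the fold changes of this contrast in view, in which Rasd1 had one of the largest falls, so the comparison of the groups is given for all 10 as a description, with no p-value. RNA sequencing was done on the hypothalamus of 12 male mice, each a separate library, taken 5 weeks after tamoxifen. The growth label gives an age of 8 weeks and does not say when it applied. Every mouse carried floxed Smc3 alleles and had tamoxifen, and the titles of all 12, under both labels, also carry the word control, which the labels do not explain. The 5 mice labelled cKO also carried Camk2a-cre/ERT2, and the 7 labelled WT did not. Camk2a-cre/ERT2 makes a tamoxifen-activated recombinase under the Camk2a promoter, which is active in excitatory neurons of the forebrain, so glia, vessels and many hypothalamic neurons keep the gene by design. SMC3 protein is part of cohesin, a ring that folds chromosomes into loops.

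Glucocorticoids (corticosterone in mice) are adrenal steroids released in a daily rhythm and under stress. They enter cells and bind 2 related nuclear receptors, the glucocorticoid receptor (Nr3c1) and the mineralocorticoid receptor (Nr3c2), which wait in the cytoplasm in complexes with the chaperone HSP90. The bound receptor moves to the nucleus, attaches to palindromic DNA elements and raises the transcription of genes such as Fkbp5 and Tsc22d3. In the hypothalamus the same receptors restrain corticotropin-releasing hormone and so close the feedback loop of the stress axis.

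Libraries held 17126005 to 24010001 reads in 11 mice and 68744112 in WT 1, and the least read member had 73 reads in a library. Smc3 was checked first, and its level was higher, not lower, under the label cKO. In CPM (reads scaled to the library total) it averaged 81.6 ± 3.14 (SD, n = 7) under the label WT, with a range of 76.8 to 85.7. Under the label cKO it averaged 131 ± 10.3 (SD, n = 5), with a range of 116 to 144. Reads counted over the whole gene cannot show whether a floxed part was lost, so this level does not settle the labels. Every direction below therefore refers to the labels only. The tissue label was checked with 11 hypothalamic marker genes. All had reads in every library except Nr5a1, whose lowest count in mice labelled WT was 0 reads. The summed level of the 11 genes ran from 75.5 to 684 CPM in mice labelled WT and from 171 to 755 CPM in mice labelled cKO. The lowest sums were those of WT 5, WT 4, cKO 12 and cKO 13, of which the last had 239 CPM. The same 4 mice had the highest sums of 8 oligodendrocyte markers, between 8471 and 9748 CPM. Markers of thalamic neurons, a neighbouring region, were also present, at 630 to 1162 CPM in mice labelled WT and 453 to 725 CPM in mice labelled cKO, over 8 genes. Of these 8, limma placed 3 lower in mice labelled cKO and 0 higher, and of the 11 hypothalamic markers 1 higher (Sim1) and 0 lower, with median log2 differences of -0.54 and 0.53.

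Over all 15359 tested genes, limma (adjusted p-value under 0.05 in a model of log2(CPM + 1)) placed 14.1% past the threshold, 1004 higher (6.54%) and 1168 lower (7.6%) in mice labelled cKO, or 1377 higher and 1054 lower after median centring of each library. Ranges of the groups did not overlap in 6.73%, and mice labelled cKO were the lower group in 3.2%. Of the 10 members, 3 were past the threshold (Rasd1, Nr3c1 and Zbtb16), all of them lower, and 2 (Rasd1 and Zbtb16) had ranges that did not overlap. These counts describe the genes and are no test, because the contrast was known when they were chosen. The median log2 fold change was -0.12 over the 10 members and 0.01 over all tested genes. In bulk tissue, fewer cells of a type and less RNA per cell cannot be told apart.

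**Figure D1:**
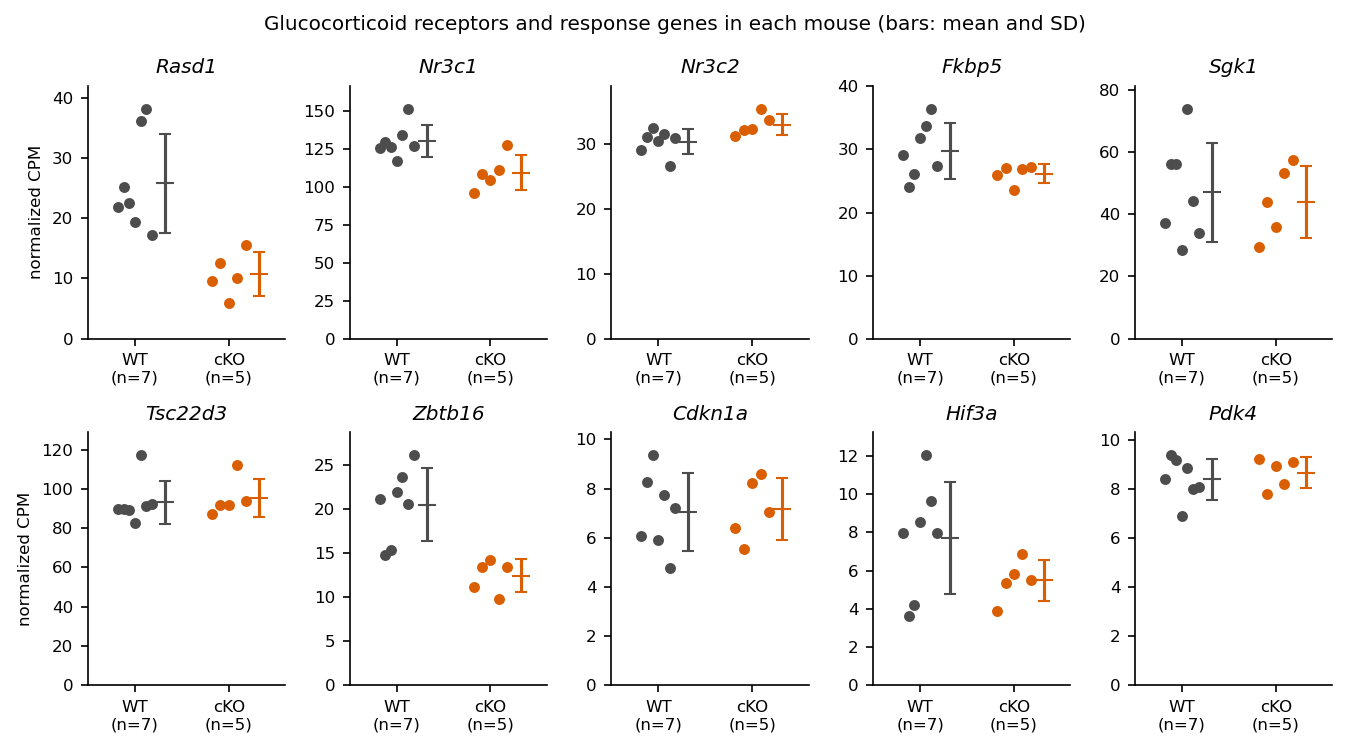
Normalized CPM of the 10 genes in each mouse (points, ordered by mouse number within a group), with the mean and SD beside them for 7 mice labelled WT and 5 labelled cKO; each axis starts at 0. Rasd1 and Zbtb16 have groups that do not overlap, while Sgk1, Tsc22d3, Cdkn1a and Pdk4 overlap almost fully.

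The receptors come first. Nr3c1 was between 117 CPM (WT 6) and 152 CPM (WT 11) in mice labelled WT, with a median of 127 CPM. In mice labelled cKO it was at 95.9 CPM in cKO 8, 109 in cKO 9, 104 in cKO 12, 111 in cKO 13 and 128 in cKO 14. So 4 of the 5 lay below every mouse labelled WT, and cKO 14 lay inside their range. The means were 130 ± 10.7 CPM (SD, n = 7) and 110 ± 11.8 CPM (SD, n = 5), a ratio of 0.841, and the log2 fold change was -0.25 (SE 0.07). Nr3c1 was no longer past the limma threshold without WT 1, WT 7, cKO 8, cKO 9, cKO 12 or cKO 13, and its log2 fold change stayed between -0.31 and -0.21 whichever of the 12 mice was dropped.

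Nr3c2, which binds corticosterone at lower hormone levels than Nr3c1 does, was between 26.6 CPM (WT 11) and 32.5 CPM (WT 5) in mice labelled WT, with a median of 31.0 CPM. In mice labelled cKO it was at 31.3, 32.2, 32.3, 35.4 and 33.7 CPM in cKO 8, 9, 12, 13 and 14. All 5 lay above the WT median, and 2 lay above every mouse labelled WT. The log2 fold change was 0.12 (SE 0.05), which was not past the threshold; with array weights it was 0.14 and past it. Per kilobase of exon, Nr3c1 was the more abundant receptor in every mouse, with an Nr3c1 to Nr3c2 ratio of 3.24 to 4.80 in mice labelled WT (median 3.52) and 2.58 to 3.19 in mice labelled cKO (median 2.72). These ranges of the ratio did not overlap, but the gap was narrow, with 3.24 in WT 6 and 3.19 in cKO 14. How often ratios of other gene pairs separate the groups was not computed, so the ratio is a description.

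Rasd1 encodes a small Ras-like G protein, named for its induction by dexamethasone, a synthetic glucocorticoid, and known as a brake on signalling through G proteins and adenylyl cyclase. It had the largest difference of the 10 genes. In mice labelled WT it was at 17.2 CPM in WT 15, the lowest, and 38.2 CPM in WT 11, the highest, with a median of 22.6 CPM. In mice labelled cKO it was at 9.57 CPM in cKO 8, 12.5 in cKO 9, 5.88 in cKO 12, 10.1 in cKO 13 and 15.5 in cKO 14. All 5 lay below the lowest mouse labelled WT. The means were 25.8 ± 8.19 CPM (SD, n = 7) and 10.7 ± 3.58 CPM (SD, n = 5), a ratio of 0.416, and the log2 fold change was -1.20 (SE 0.22). Each library gave Rasd1 between 126 and 1507 reads. The gene lies on chromosome 11, minus strand.

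The mice within a group also differed widely in Rasd1. Its coefficient of variation among mice labelled WT was 31.8%, higher than for 98.4% of the 5116 tested genes with a WT mean within a factor of 2 of its own. Among the 12188 genes averaging 5 CPM or more, those most like it over the 12 libraries, once each group's mean had been subtracted, were Plekhg1 (Pearson r 0.990), Shox2 (0.985), Cck (0.979), Tcf7l2 (0.976) and Wnt3 (0.965). Plekhg1 and Tcf7l2 are on the list of thalamic markers. Without that subtraction the most similar were Cck (r 0.993), Osbpl3 (0.988), Rgs16 (0.982), Lrrc7 (0.975) and Scube2 (0.971), and Rgs16 is on the thalamic list too. These correlations were picked as the highest of many and are a description.

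The level of Rasd1 was then set against the thalamic marker score, the mean of log2(CPM + 1) over the 8 marker genes within the 7 mice labelled WT. This relation and 99 others, between each of the 10 genes and 10 lists of marker and immediate-early genes, were computed after the similar genes had been seen. Since Plekhg1, Tcf7l2 and Rgs16 belong to the score and had been found by their likeness to Rasd1 in the same mice, its relation to the score restates that likeness and is given as a description, with no p-value. Rasd1 and the thalamic score had a Pearson r of 0.971 and a Spearman's rho of 0.964. Without the 2 mice farthest from the median score r was 0.932. Among the 5 mice labelled cKO, too few for a test, r was 0.925. WT 11 and WT 7 had the highest values of both measures, and cKO 12 the lowest of both.

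With the thalamic score as a covariate in the model of all genes, the log2 fold change of Rasd1 was -0.49 (SE 0.11) in place of -1.20. It was still past the limma threshold in that fit. That of Nr3c1 was -0.10 (SE 0.07) and was no longer past it, and that of Zbtb16 was -0.80 (SE 0.18). Sgk1 had a log2 fold change of 0.45 (SE 0.22) with the covariate and -0.07 without it, and was not past the threshold in either fit. Plekhg1, Tcf7l2 and Rgs16 belong to the score and were found by their likeness to Rasd1, so the Rasd1 value in this fit is a description and no test. The score ran from 5.90 to 6.85 in mice labelled WT and from 5.16 to 6.09 in mice labelled cKO, so it largely went with the group. The part of tissue makeup in the differences between the groups was not tested.

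**Figure D2:**
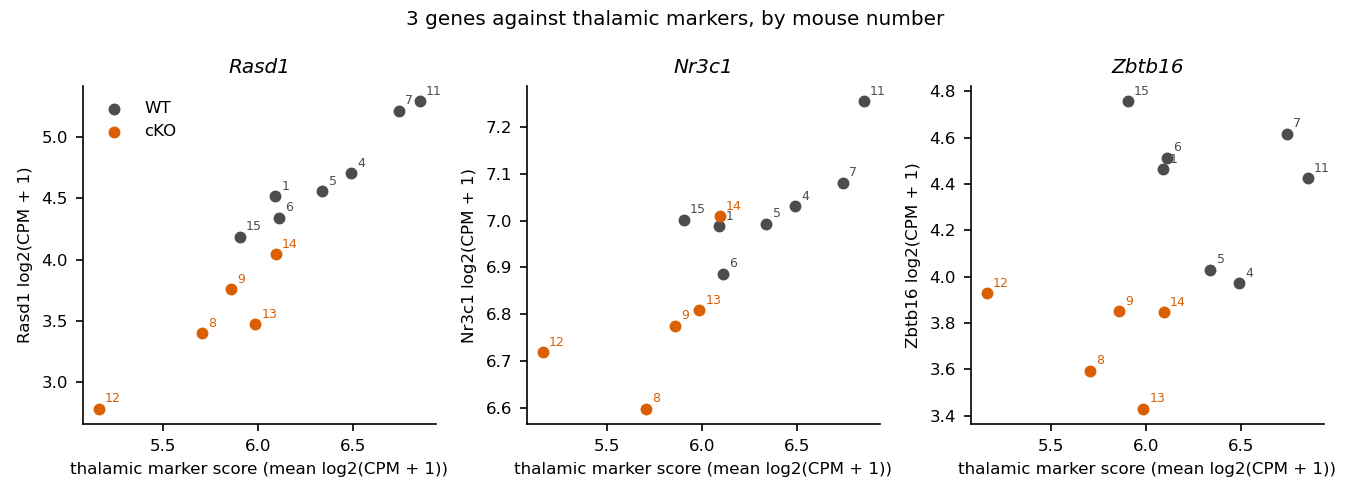
Level of Rasd1, Nr3c1 and Zbtb16 (log2(CPM + 1), vertical axes) against the thalamic marker score (mean log2(CPM + 1) of 8 genes, horizontal axes), each point a mouse with its number, in grey for WT and orange for cKO. Rasd1 rises with the score in both groups, with r of 0.971 over the 7 mice labelled WT, whereas Zbtb16 has r of -0.26 in the same mice.

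**Figure D3:**
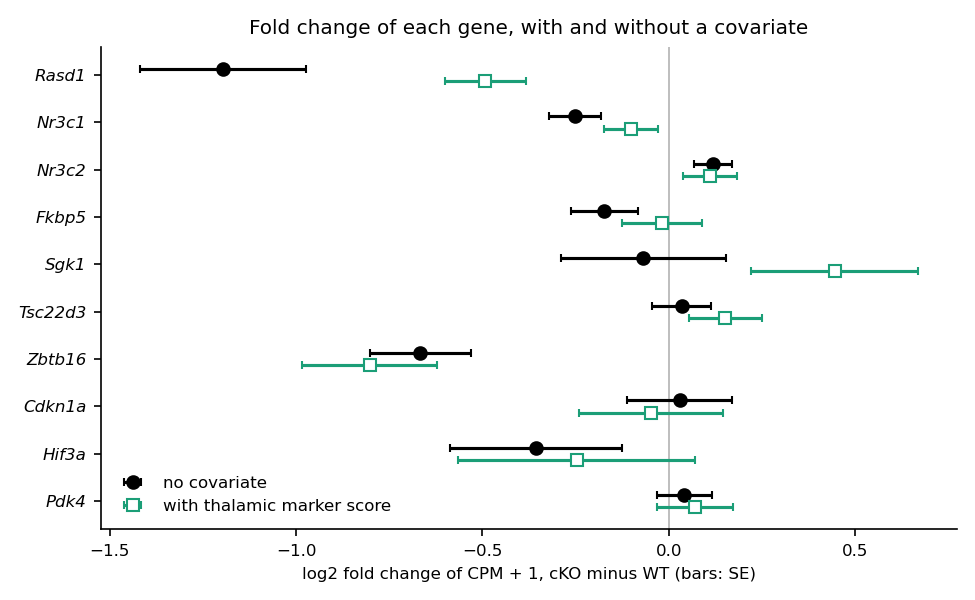
Log2 fold change of CPM + 1, mice labelled cKO minus mice labelled WT, for each gene with its SE, without a covariate (black circles) and with the thalamic marker score as a covariate (green squares). Rasd1 moves from -1.20 to -0.49 and Zbtb16 from -0.67 to -0.80.

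Zbtb16 encodes the zinc finger repressor PLZF and is a textbook glucocorticoid-induced gene. It was lower in all 5 mice labelled cKO than in any mouse labelled WT. In mice labelled WT it was between 14.7 CPM (WT 4) and 26.0 CPM (WT 15), with a median of 21.1 CPM. In mice labelled cKO it was at 11.1 CPM in cKO 8, 13.4 in cKO 9, 14.2 in cKO 12, 9.78 in cKO 13 and 13.4 in cKO 14. The gap between the groups was narrow, since 14.7 CPM in WT 4 and 15.3 CPM in WT 5 lay close to 14.2 CPM in cKO 12. The means were 20.4 ± 4.13 CPM (SD, n = 7) and 12.4 ± 1.87 CPM (SD, n = 5), a ratio of 0.606, and a log2 fold change of -0.67 (SE 0.14).

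WT 4 and WT 5, the lowest of the mice labelled WT for Zbtb16, were also the mice with the lowest hypothalamic marker sums. Within mice labelled WT, Zbtb16 and the hypothalamic marker score had a Pearson r of 0.905 (exact permutation p-value 0.00933, adjusted 0.157) and a Spearman's rho of 0.857 (exact permutation p-value 0.0238, adjusted 0.238). Without the 2 mice farthest from the median score r fell to 0.505, so the relation rests on those mice. Among the 5 mice labelled cKO r was 0.143. Zbtb16 and the oligodendrocyte score, which is high in WT 4 and WT 5, had r of -0.86 in mice labelled WT (exact permutation p-value 0.0204, adjusted 0.157) and rho of -0.71 (exact permutation p-value 0.0881, adjusted 0.420), and r of -0.23 without 2 mice. Neither relation passed after adjustment.

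Leaving aside Rasd1 with the thalamic score, which is a description and no test, no marker relation within mice labelled WT passed after adjustment. The 3 described next had the lowest adjusted p-values of the rest and were picked after their values were seen. Pdk4 and the pituitary score had r of 0.967 (exact permutation p-value 0.00198, adjusted 0.0992) and rho of 0.929 (exact permutation p-value 0.00675, adjusted 0.135), with r of 0.882 without 2 mice. That score rests on only 3 of 6 listed genes, all at low levels. Gh, Tshb and Lhb averaged 1.27, 1.77 and 1.57 CPM in mice labelled WT. Prl, Cga and Fshb were too low to be tested and are not in the score. Cdkn1a and the endothelial score had r of 0.865 (exact permutation p-value 0.0145, adjusted 0.157) and rho of 0.964 (exact permutation p-value 0.00278, adjusted 0.0926), with r of 0.662 without 2 mice. Nr3c2 and the score of cortical and striatal neurons had r of -0.86 (exact permutation p-value 0.0129, adjusted 0.157) and rho of -0.96 (exact permutation p-value 0.00278, adjusted 0.0926), with r of -0.80 without 2 mice. Nr3c1 and the thalamic score, plotted beside Rasd1, had r of 0.794 (exact permutation p-value 0.0185, adjusted 0.157) and rho of 0.750 (exact permutation p-value 0.0663, adjusted 0.390), with r of 0.853 without 2 mice. Among the 5 mice labelled cKO, r in these relations was 0.34 for Pdk4, 0.73 for Cdkn1a, -0.74 for Nr3c2 and 0.59 for Nr3c1.

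The fold change of Zbtb16 kept its sign and its side of the threshold in all 27 alternative fits run, from -0.80 to -0.58.

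Fkbp5 encodes FKBP51, a co-chaperone that lowers the hormone affinity of the receptor and is itself induced by it. In mice labelled WT it was between 24.1 CPM (WT 4) and 36.4 CPM (WT 11), with a median of 29.1 CPM. The mice labelled cKO had it at 25.9, 27.1, 23.6, 26.8 and 27.2 CPM in cKO 8, 9, 12, 13 and 14. All 5 lay under the WT median, but the groups overlapped, and the log2 fold change of -0.17 (SE 0.09) was not past the threshold. The mice labelled cKO were close together, with a coefficient of variation of 5.84% against 14.8% in mice labelled WT. With the thalamic score as a covariate the log2 fold change was -0.02 (SE 0.11).

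The genes most like Fkbp5 over the 12 libraries after subtraction of group means were Ppp1r1a (r 0.939), Adamts17 (0.939), Timp3 (0.918), Htr7 (0.914) and Pip5k1a (0.912). None of these is on a list used here.

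Sgk1 encodes a serine/threonine kinase that regulates sodium channels and transporters and is induced through both receptors. It varied most between mice relative to genes of its level: in mice labelled WT it ran from 28.4 CPM (WT 6) to 73.8 CPM (WT 7), with a median of 44.2 CPM. Under the cKO label it was at 29.6, 44.0, 35.9, 53.1 and 57.5 CPM in cKO 8, 9, 12, 13 and 14. The groups overlapped almost wholly, with means of 47.0 ± 15.9 CPM (SD, n = 7) and 44.0 ± 11.6 CPM (SD, n = 5). Its coefficient of variation of 33.7% in mice labelled WT exceeded that of 98.8% of 5201 genes of similar level. The log2 fold change of -0.07 (SE 0.22) changed sign with array weights, with the thalamic or the immediate-early score as a covariate, and without WT 7 or cKO 8.

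Tsc22d3 encodes GILZ, the glucocorticoid-induced leucine zipper, which mediates part of the anti-inflammatory action of these steroids. It was between 82.5 CPM (WT 6) and 117 CPM (WT 7) in mice labelled WT, with a median of 90.0 CPM. In mice labelled cKO it was at 87.4, 91.8, 91.7, 112 and 94.0 CPM in cKO 8, 9, 12, 13 and 14. Apart from WT 7 and cKO 13, all mice lay between 82.5 and 94.0 CPM. The log2 fold change was 0.04 (SE 0.08), and -0.02 without cKO 13.

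Promoter sequences are shown for Sgk1 and Tsc22d3 because they were the members, of those searched, whose windows held letters of the element that the receptors bind. RefSeq promoter windows (build GRCm38.p6, 250 bases before to 50 bases after a transcript start) were matched by symbol for 7 of the 10 genes, with 15 windows, since some genes have several starts. Rasd1, Nr3c1 and Zbtb16, the members past the threshold, were not searched. The full palindrome searched was AGAACA, then 3 bases of any kind, then TGTTCT, which reads the same on both strands. A looser core (GNACA, then 3 bases of any kind, then TGTNC) and the single arm (AGAACA, or TGTTCT on the other strand) were searched too. The core and the arm lie inside the palindrome, so their matches overlap. The palindrome occurred in 3 of all 32851 windows (0.00913%), the core in 156 (0.475%) and the arm in 6233 (19.0%). Of the 15 member windows, 1 of Sgk1 held the palindrome and the core, and 4 held the arm (3 of Sgk1 and 1 of Tsc22d3). The lines below give the 250 bases before 1 start of each gene, 5′ to 3′ on the gene's own strand, and capitals mark these matches. In the Sgk1 window shown, the palindrome lies 189 to 175 bases before that start. The windows of the other Sgk1 starts did not hold it, and a gene with more windows had more chances of a match. The Sgk1 window is chr10:21993640-21993889, plus strand, and the Tsc22d3 window is chrX:140600523-140600772, minus strand. A match describes letters and is no evidence of binding.
Sgk1: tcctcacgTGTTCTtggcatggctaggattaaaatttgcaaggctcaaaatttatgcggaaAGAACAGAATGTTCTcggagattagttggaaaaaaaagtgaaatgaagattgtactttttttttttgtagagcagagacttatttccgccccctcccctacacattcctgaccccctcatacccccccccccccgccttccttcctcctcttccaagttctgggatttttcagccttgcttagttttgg
Tsc22d3: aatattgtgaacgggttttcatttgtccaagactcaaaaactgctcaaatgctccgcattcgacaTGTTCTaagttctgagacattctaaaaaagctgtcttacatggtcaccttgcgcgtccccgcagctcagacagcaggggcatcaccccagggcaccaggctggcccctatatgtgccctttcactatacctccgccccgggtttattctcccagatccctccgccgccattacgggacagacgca

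Hif3a encodes a hypoxia-inducible factor subunit that in many tissues restrains the other family members. It was between 3.60 CPM (WT 4) and 12.03 CPM (WT 7) in mice labelled WT, with a median of 7.96 CPM, and at 3.90, 5.34, 5.83, 6.88 and 5.50 CPM in cKO 8, 9, 12, 13 and 14. All 5 mice labelled cKO lay below the WT median, yet WT 4 and WT 5 (4.19 CPM) lay within or below their range. The log2 fold change of -0.36 (SE 0.23) was not past the threshold, and with array weights it was -0.48 and past it. Hif3a had the largest spread of the 10 genes among mice labelled WT, a coefficient of variation of 38.4%.

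Cdkn1a, the cyclin-dependent kinase inhibitor p21, and Pdk4, a mitochondrial kinase that turns down pyruvate dehydrogenase and glucose oxidation, were at low levels and overlapped between the groups. Cdkn1a ran from 4.75 to 9.35 CPM in mice labelled WT and from 5.54 to 8.59 CPM in mice labelled cKO, and its log2 fold change was 0.03 (SE 0.14). Pdk4 ran from 6.89 to 9.37 CPM and from 7.79 to 9.23 CPM, and its log2 fold change was 0.04 (SE 0.07). The sign of the Cdkn1a value changed in 6 of 27 alternative fits, and that of Pdk4 in 0.

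Levels of different genes were compared per kilobase of exon (GENCODE M21 models) in mice labelled WT. Tsc22d3 was highest at 21.5 ± 2.53 CPM per kilobase (SD, n = 7), followed by Nr3c1 at 17.0 ± 1.39 and Rasd1 at 16.0 ± 5.09. Sgk1 was at 9.59 ± 3.24, Nr3c2 at 4.69 ± 0.299, Zbtb16 at 3.87 ± 0.781 and Fkbp5 at 3.15 ± 0.467 CPM per kilobase. Pdk4 at 2.39 ± 0.240, Cdkn1a at 1.98 ± 0.443 and Hif3a at 1.15 ± 0.441 CPM per kilobase were lowest. Ranges over the 7 mice overlapped between every pair of neighbours in this order except Sgk1, whose lowest value was 5.79 CPM per kilobase, and Nr3c2, whose highest was 5.02.

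The authors' deposited table gives log2 fold changes of -1.27 for Rasd1, -0.72 for Zbtb16, -0.49 for Hif3a, -0.25 for Nr3c1, -0.19 for Fkbp5 and -0.10 for Sgk1. For the genes with a positive value the authors' deposited table gives 0.12 for Nr3c2, 0.05 for Pdk4, 0.03 for Tsc22d3 and 0.03 for Cdkn1a. The sign is that of the limma value for all 10 genes.

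Whether the members rose and fell together from mouse to mouse was asked within the 7 mice labelled WT, over all 45 pairs. No pair was past an adjusted exact permutation p-value of 0.05 (smallest 0.0714 for Pearson's r and 0.152 for Spearman's rho), and 6 pairs had an unadjusted p-value under 0.05 for r. The closest pair was Nr3c2 with Cdkn1a, with r of 0.915 (exact permutation p-value 0.00159, adjusted 0.0714) and rho of 0.929 (exact permutation p-value 0.00675, adjusted 0.152), and r of 0.883 without the 2 mice farthest from the median of Nr3c2. Rasd1 with Nr3c1 had r of 0.832 (exact permutation p-value 0.00833, adjusted 0.125) and rho of 0.786 (exact permutation p-value 0.048, adjusted 0.360), and r of 0.441 without 2 mice, so it rests on those. Fkbp5 with Hif3a had r of 0.878 (exact permutation p-value 0.00833, adjusted 0.125) and rho of 0.929 (exact permutation p-value 0.00675, adjusted 0.152), and r of 0.875 without 2 mice. Among the 5 mice labelled cKO, r was 0.03 for Fkbp5 with Hif3a, 0.63 for Nr3c2 with Cdkn1a and 0.65 for Rasd1 with Nr3c1. Some pairs had r near 0 in mice labelled WT, such as Fkbp5 with Sgk1 (-0.07) and Rasd1 with Zbtb16 (-0.08). Among the 5 mice labelled cKO these had r of 0.60 and -0.07. Whether the genes form a single block was not tested.

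**Figure D4:**
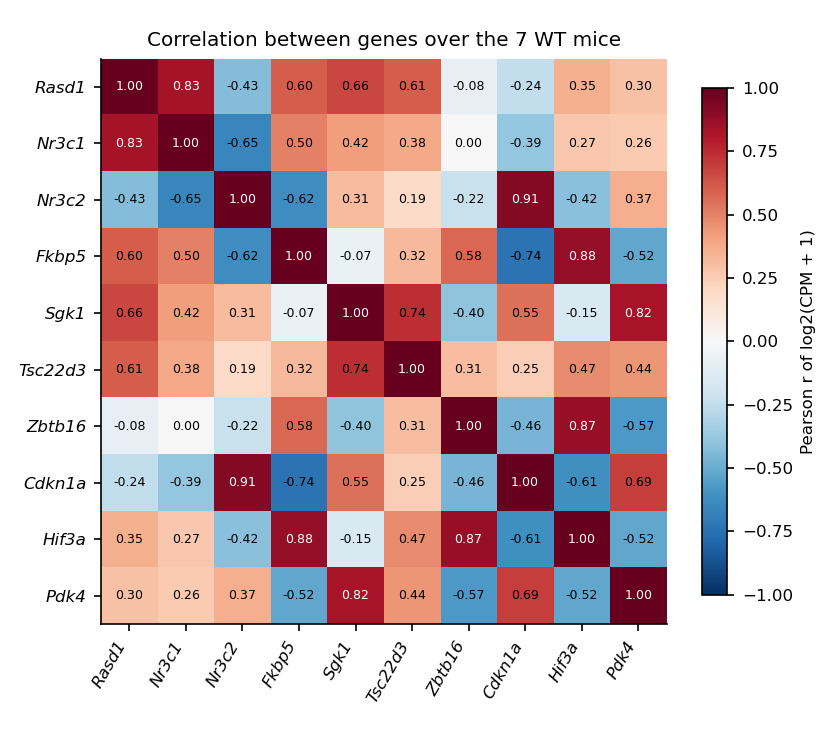
Pearson r of log2(CPM + 1) between each pair of the 10 genes over the 7 mice labelled WT, from -1 in blue to 1 in red, with the value in each cell. Nr3c2 with Cdkn1a is highest at 0.91, and no pair passed after adjustment over 45 pairs.

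Other genes of the pathway were taken from 6 lists. Of the 110 listed genes, 101 were tested and 13 (12.9%) were past the limma threshold, 8 higher and 5 lower in mice labelled cKO, close to the 14.1% of all tested genes. The median log2 fold change over the 101 was -0.04. The 13 fell to 7 without WT 1 and to 7 without cKO 9, fits in which the share of all tested genes past the threshold was also lower, at 7.56% and 9.73%.

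The receptor machinery list holds 17 chaperones, coactivators and corepressors, all tested, of which 4 rose and 1 fell, with a median log2 fold change of 0.01. Hsp90aa1, the inducible HSP90, averaged 638 ± 41.2 CPM in the 7 mice labelled WT and 757 ± 44.5 CPM in the 5 labelled cKO; the groups did not overlap, and the log2 difference was 0.25 (SE 0.05, limma adjusted p-value 0.0107). Hspa8, the constitutive HSC70, rose by 0.18 (SE 0.05, limma adjusted p-value 0.0322), and Stip1, which bridges HSC70 and HSP90, by 0.18 (SE 0.05, limma adjusted p-value 0.0377). Fkbp4, which encodes FKBP52, the counterpart of FKBP51, rose by 0.14 (SE 0.03, limma adjusted p-value 0.021); it was named after its value was seen.

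Hsp90ab1 differed by 0.07 on the log2 scale (SE 0.04, limma adjusted p-value 0.269) and the co-chaperone Ptges3 by 0.13 (SE 0.05, limma adjusted p-value 0.0747). Bag1, another co-chaperone, differed by 0.13 (SE 0.06, limma adjusted p-value 0.138). These 3 were not past the threshold and were named after their values were seen. Ncoa3, a steroid receptor coactivator, fell, at 52.2 ± 2.28 CPM under WT and 44.7 ± 3.52 CPM under cKO (log2 difference -0.22, SE 0.05, limma adjusted p-value 0.0142). Ncoa1 and Ncoa2, its relatives, had log2 fold changes of -0.07 and 0.01 and were not past the threshold. Hspa8 was not past it without WT 1, WT 6, WT 7, WT 11, cKO 9, cKO 13 or cKO 14 (limma adjusted p-values up to 0.0696). Stip1 was not past it in 9 of 12 such fits, all but those without WT 4, WT 5 or cKO 14 (up to 0.0948), nor Fkbp4 without WT 1 or cKO 9 (up to 0.052). When all genes above 0 were tested, Hspa8 and Stip1 were not past it (limma adjusted p-values 0.0843 and 0.0727). Quantile normalization gave 0.0713 and 0.0525. Stip1 also was not past it with eBayes without trend (limma adjusted p-value 0.0535) or with edgeR (edgeR adjusted p-value 0.0552). The log2 differences in these settings lay between 0.15 and 0.18. With the thalamic score as a covariate, Hsp90aa1 and Fkbp4 were past the threshold, and Hspa8 (limma adjusted p-value 0.078), Stip1 (0.183) and Ncoa3 (0.0611) were not. Their log2 differences in that fit were 0.21 (SE 0.07) for Hspa8, 0.17 (SE 0.07) for Stip1 and -0.25 (SE 0.07) for Ncoa3, close to or larger than those without the covariate, and the SEs were wider.

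Of 28 other glucocorticoid-induced genes, 27 were tested, 1 rose and 0 fell, with a median log2 fold change of -0.05. Mfsd2a, a lipid transporter of brain endothelium, rose, at 19.5 ± 1.46 CPM under WT and 24.3 ± 3.90 CPM under cKO (log2 difference 0.30, SE 0.08, limma adjusted p-value 0.0328). It was not past the threshold without WT 1, WT 6, WT 11, cKO 9 or cKO 13 (limma adjusted p-values up to 0.0658), or with the thalamic score (0.0766), where its log2 difference was larger, at 0.37, with a wider SE of 0.11. Mfsd2a also was not past it when all genes above 0 were tested (limma adjusted p-value 0.0599, log2 difference 0.30). The log2 difference was above 0 for 10 of the 27 and below 0 for 17. Those not past the threshold ran from -0.39 for Plin4 to 0.25 for Gpd1. Endothelial markers, 8 of 8 tested and 0 past the threshold, summed to 275 to 349 CPM in mice labelled WT and 291 to 360 CPM in mice labelled cKO. Their log2 difference was above 0 for 7 and below 0 for 1, with a median of 0.11. With the endothelial score as a covariate the log2 difference of Mfsd2a was 0.24. The part of endothelial content in the rise of Mfsd2a was not tested.

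The stress axis list of 11 genes had 9 tested and 0 past the threshold, with a median log2 fold change of -0.35. Crh, corticotropin-releasing hormone, was at 1.92 to 11.6 CPM in mice labelled WT and 0.760 to 6.80 CPM in mice labelled cKO. Avp ran from 1.67 to 108 CPM and from 0.793 to 125 CPM, so mice of the same group differed far more than the groups did. Of the 8 genes of steroid supply, 5 were tested and 0 were past the threshold; Hsd11b1, which regenerates active corticosterone, was at 14.5 ± 1.78 CPM (SD, n = 7) and 18.5 ± 4.74 CPM (SD, n = 5). Of 10 immediate-early genes, which respond to recent activity, 9 were tested and 0 were past the threshold, with a median log2 fold change of -0.36 and summed levels of 129 to 296 CPM and 147 to 245 CPM. The log2 fold change was below 0 for all 9 tested immediate-early genes. With their score as a covariate the log2 fold change of Rasd1 was -1.13 and that of Nr3c1 was -0.20, the latter no longer past the threshold.

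Relatives and partners of the members made the last list, with 34 of 36 tested, 3 risen and 4 fallen, and a median log2 fold change of 0.02. Around Hif3a, the oxygen sensor Egln1 rose from 84.5 ± 3.001 to 96.9 ± 2.60 CPM (log2 fold change 0.20, SE 0.03, limma adjusted p-value 0.00478) and Vhl, which marks hypoxia-inducible factors for breakdown, rose by 0.18 (SE 0.04, limma adjusted p-value 0.016). Arnt, the shared partner of these factors, fell from 42.9 ± 3.34 to 35.0 ± 3.75 CPM (log2 fold change -0.29, SE 0.07, limma adjusted p-value 0.0189). Tsc22d1, a relative of Tsc22d3, rose by 0.14 (SE 0.03, limma adjusted p-value 0.0134). Cdkn1c, a relative of Cdkn1a, fell from 6.89 ± 1.42 to 4.44 ± 1.20 CPM (log2 fold change -0.54, SE 0.15, limma adjusted p-value 0.0279).

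Trp53, which induces Cdkn1a, fell by 0.15 (SE 0.05, limma adjusted p-value 0.0487), was not past the threshold in 11 of 12 fits without 1 mouse (all but that without WT 15), nor with the thalamic score (limma adjusted p-value 0.206, log2 difference -0.15, SE 0.07), and was named after its value was seen. Trp53 also was not past it when all genes above 0 were tested (limma adjusted p-value 0.0705) or with median centring (0.0598, log2 difference -0.14). Cdkn1c was not past it without WT 1, cKO 8, cKO 9 or cKO 14 (limma adjusted p-values up to 0.0655). It also was not when all genes above 0 were tested (limma adjusted p-value 0.0628, log2 difference -0.54). With the immediate-early score as a covariate it was not past it either (0.0686, log2 difference -0.46). Egln1, Vhl, Arnt and Tsc22d1 were past it in all 12 fits without 1 mouse. With the thalamic score as a covariate Egln1 (limma adjusted p-value 0.0367) and Cdkn1c (0.0344) were past it, and Vhl (0.0688), Arnt (0.121) and Tsc22d1 (0.0783) were not. The log2 differences in that fit were 0.20 (SE 0.06) for Vhl, -0.27 (SE 0.10) for Arnt and 0.14 (SE 0.04) for Tsc22d1, near those without the covariate, with wider SEs. The partners of Rasd1 were not past the threshold without a covariate. The log2 difference was -0.28 for its relative Rasd2 (SE 0.11, limma adjusted p-value 0.111), -0.48 for the adaptor Nos1ap (SE 0.17, limma adjusted p-value 0.0748) and -0.32 for Nos1 (SE 0.13, limma adjusted p-value 0.0982). It was 0.03 for the adaptor Acbd3 (SE 0.05, limma adjusted p-value 0.754) and -0.07 for the iron transporter Slc11a2 (SE 0.04, limma adjusted p-value 0.220).

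**Figure D5:**
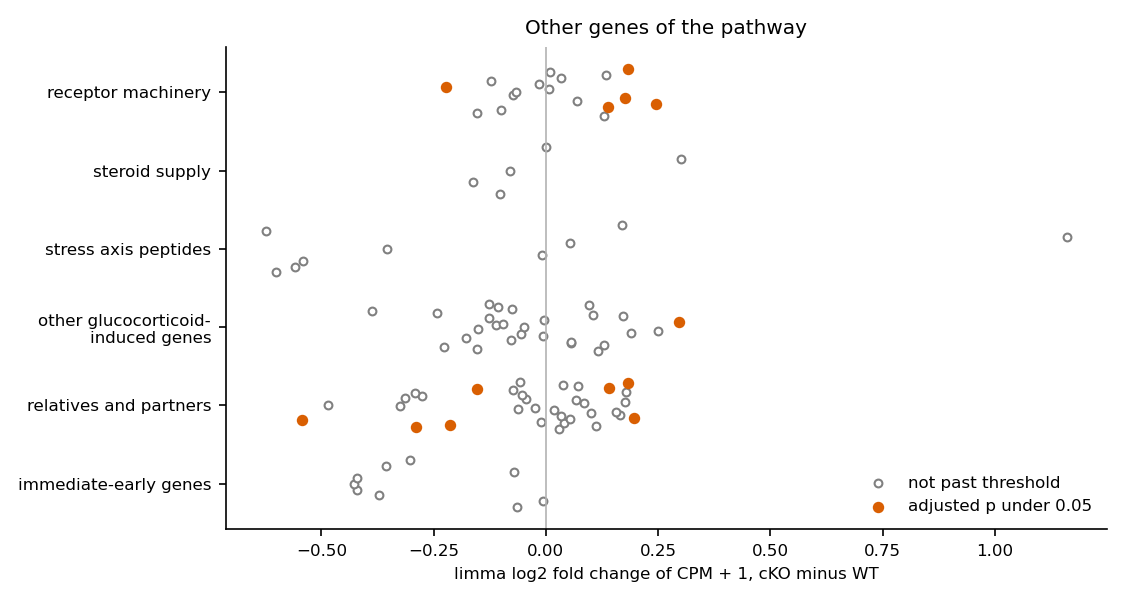
Limma log2 fold change of CPM + 1, mice labelled cKO minus mice labelled WT (horizontal axis), for the 101 tested genes of the 6 lists (rows); filled points are past an adjusted p-value of 0.05 and open points are not. The 13 filled points lie in 3 lists: 5 in the receptor machinery, 1 among other induced genes and 7 among relatives and partners.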

How the data were processed

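The authors deposited normalized CPM (reads per gene scaled to an effective library total) for 32494 genes and 12 libraries. A second deposited table holds the authors' log2 fold changes and p-values. The submitters' processing notes name bcl2fastq, FastQC 0.11.9, STAR 2.7.9a, SAMtools, Subread and featureCounts. Genome build, annotation and strand setting are not given in the sources used here, so reads of overlapping genes may be mixed. Deposited CPM values were whole multiples of a step per library (100% within 0.02 of a read), so whole reads were recovered; edgeR on these called 2098 genes and 0 columns were left unused. No replicate pair matched within sampling noise (chi-square per degree of freedom at least 3.04 over 31 pairs). Separate titles are taken as separate mice.

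The test was limma 3.58.1 (R 4.3.3; lmFit, then eBayes with a trend) of log2(CPM + 1) on group alone, over the 15359 genes averaging 1 CPM or more, with Benjamini-Hochberg adjustment; fold changes on this scale understate low genes. Correlations used exact permutation (2-sided) over 7 mice (5040 pairings). The members and lists were chosen with earlier results of these data known. Named genes were the members, at most 3 rises and 3 falls per list, and the 5 genes most like Rasd1 or Fkbp5. Pathway genes named although not past the threshold were picked after their values were seen. The result of 1 listed gene that the rule names is not reported here. Alternatives were a pseudocount of 0.1, no minimum, a minimum of 5 CPM, median centring, quantile normalization, eBayes without trend or robust, arrayWeights, edgeR 4.0.16 and DESeq2 1.42.0 on recovered reads, 5 marker covariates, and leaving out each mouse. The fits were tested on simulated data.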

Additional observations from a re-analysis of the deposited data

Results flagged for a closer look

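Each of 52 sets of values from a single group was searched for a mouse well apart from the others, and 5 held such a mouse. About 1 in 20 would by chance, or 2.6 of 52. Tsc22d3 was at 117 CPM in WT 7, with the next mouse labelled WT at 92.4 CPM. It was at 112 CPM in cKO 13, with the next mouse labelled cKO at 94.0 CPM. The Nr3c1 to Nr3c2 ratio per kilobase was 4.80 in WT 11, with the next at 3.65. The summed receptor machinery was 5436 CPM in cKO 9, with the next at 5334 CPM. The summed immediate-early genes were at 245 CPM in cKO 14, with the next at 174 CPM.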

How the results depend on the processing

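All 3 members past the threshold kept their direction in all 27 alternative fits. Rasd1 and Zbtb16 were past it in every one, and Nr3c1 lost it over all genes above 0, with the thalamic or the immediate-early covariate, and without each of 6 mice. Genes past the threshold numbered 5126 with arrayWeights, 679 with the thalamic covariate and 1161 (without WT 1) to 2309 on leaving out a mouse. Members past it numbered 5 with arrayWeights and 2 to 3 on leaving out a mouse. Pathway genes past it numbered 8 over all genes above 0, 33 with arrayWeights, 4 with the thalamic, 24 with the oligodendrocyte and 20 with the endothelial covariate, and 7 to 14 on leaving out a mouse. The share of all tested genes past it moved the same way, from 14.1% to 4.86%, 33.4%, 4.42%, 21.0% and 17.9% in those 5 settings. The median member fold change of -0.12 ran from -0.18 to -0.05 on leaving out a mouse and was -0.03 with the thalamic covariate. Pairs of members past adjustment numbered 0 in every setting run; with 6 mice the smallest possible p-value, 0.00139, could not pass over 45 pairs if 1 pair alone reached it, so the fits without a mouse labelled WT say nothing here. Relations with marker scores were tried after seeing the data. In the main fit the 1 past adjustment was Rasd1 with the thalamic score, which restates a likeness already seen and is no test. The number was 2 with quantile normalization and 0 to 0 on leaving out a mouse, where the same limit holds over 100 relations. These numbers are a description. The r of Rasd1 with the thalamic score stayed between 0.953 and 0.983. For each such shift, the cause was not tested. No paired analysis was possible because the groups share no mouse numbers. The members with the fewest reads in a library were Hif3a (73) and Cdkn1a (113), and the effect of read depth on them was not tested.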
